A study of Mus musculus with 13 samples.

Results

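The genes described are 10 secreted ligands of the CC chemokine family, *Ccl2*, *Ccl3*, *Ccl4*, *Ccl5*, *Ccl6*, *Ccl7*, *Ccl9*, *Ccl12*, *Ccl17* and *Ccl22*, out of 24445 gene symbols in the count table, which also holds 117 transcripts without a symbol. They were chosen by a list of symbols and not by their values, although earlier results of these data were known, and each was read from its RefSeq transcript, of which the table held 1 per ligand. RNA-seq was performed on bone marrow-derived macrophages (BMDMs) of female C57Bl/6J mice, stimulated with lipopolysaccharide (LPS, 100 ng/mL), a bacterial outer membrane component, for 3 h or 24 h. Control BMDMs came from mice with a loxP-flanked exon of *Acly* on both alleles (Acly fl/fl). AclyM-KO BMDMs carried the same floxed alleles and Cre driven by the *Lyz2* promoter, which is active in myeloid cells and which the controls lack. There were 3 control and 3 AclyM-KO libraries after 3 h, and 4 control and 3 AclyM-KO libraries after 24 h. Unstimulated cells were not analysed here, so every difference lies between LPS-treated cells. The labels do not tie libraries to mice or cultures, so that p-values measure the spread between these libraries, which may be technical.

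CC chemokines are small proteins that draw leukocytes along a gradient through G protein-coupled receptors on the responding cell. CCL2, CCL7 and CCL12 bind CCR2 and recruit monocytes, CCL3, CCL4, CCL5, CCL6 and CCL9 attract monocytes, macrophages and T cells, several of them through CCR1, and CCL17 and CCL22 bind CCR4 on T cells. Macrophages transcribe many of these genes when LPS engages TLR4 and activates NF-κB and interferon signalling.

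Total counts were 21274102 to 59577343 in 12 libraries and 34467 in control 24 h replicate 1, in which 1 count stood for 22.4 CPM (counts scaled to a common library size with TMM factors). That library was left out of the fit reported here and put back in an alternative fit. Across genes, its log2 CPM correlated at 0.734 to 0.735 with AclyM-KO 3 h libraries and at 0.731 to 0.732 with control 3 h libraries. With the other 24 h libraries the range was 0.673 to 0.676. It held 1 read of *Acly* (22.4 CPM), against 107 to 113 CPM in the other control 24 h libraries. AclyM-KO libraries had 29.1 to 30.5 CPM of *Acly* at 24 h. Whether the genotype and time labels of that library hold was not tested. The targeted gene *Acly* was lower in AclyM-KO at both times, by a log2 fold change of -1.34 after 3 h and -1.88 after 24 h, counted over its whole transcript. All 8 macrophage markers examined had counts in every library, and their sum was 4523 to 10081 CPM in the 12 libraries. In the same libraries the sums of dendritic cell, T cell, B cell, fibroblast and mast cell or basophil markers each came to at most 2.79 CPM. Neutrophil markers summed to 3.44 to 15.3 CPM.

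The ligands lie in 2 genomic clusters in GENCODE M21, which annotates GRCm38 (mm10, the build of the files). Within the cluster on chromosome 11, *Ccl2* (82035571 to 82037453, plus strand), *Ccl7* (82045712 to 82047525, plus) and *Ccl12* (82101845 to 82103400, plus) sit together. Further along the same chromosome lie *Ccl5* (83525778 to 83530518, minus), *Ccl9* (83572919 to 83578636, minus), *Ccl6* (83587882 to 83593087, minus), *Ccl3* (83647844 to 83649355, minus) and *Ccl4* (83662584 to 83664683, plus). On chromosome 8 are *Ccl22* (94745590 to 94751699, plus) and *Ccl17* (94810453 to 94812036, plus). *Ccl2* overlaps *Gm17268* and *Ccl6* overlaps *E230016K23Rik* on the opposite strand. The strand setting of the counting is not given in the sources used here, so reads of these overlaps could be shared.

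Promoter windows from 250 bases before to 50 bases after the start site were found for 6 of the 10 ligands in the RefSeq sequences of GRCm38.p6, namely *Ccl3*, *Ccl6*, *Ccl9*, *Ccl12*, *Ccl17* and *Ccl22*. 3 of them are shown, as examples of ligands that fell between 3 h and 24 h LPS and that passed (*Ccl12* and *Ccl3*) or did not pass (*Ccl9*) the genotype test by adjusted p; *Ccl6* fell as well and is not shown. Capitals mark matches to the motifs searched.
Ccl12, chr11:82101595-82101894, plus strand: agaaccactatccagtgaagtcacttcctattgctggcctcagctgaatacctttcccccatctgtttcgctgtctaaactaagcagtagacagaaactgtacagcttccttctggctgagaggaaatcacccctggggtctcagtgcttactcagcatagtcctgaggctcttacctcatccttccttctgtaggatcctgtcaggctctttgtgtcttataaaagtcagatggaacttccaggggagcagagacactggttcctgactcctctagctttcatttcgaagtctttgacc
Ccl3, chr11:83649329-83649628, minus strand: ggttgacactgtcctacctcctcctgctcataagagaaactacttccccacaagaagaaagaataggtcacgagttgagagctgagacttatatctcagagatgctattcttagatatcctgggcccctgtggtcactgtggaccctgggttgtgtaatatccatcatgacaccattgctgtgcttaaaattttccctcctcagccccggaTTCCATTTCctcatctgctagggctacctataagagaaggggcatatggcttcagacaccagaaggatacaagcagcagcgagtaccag
Ccl9, chr11:83578587-83578886, minus strand: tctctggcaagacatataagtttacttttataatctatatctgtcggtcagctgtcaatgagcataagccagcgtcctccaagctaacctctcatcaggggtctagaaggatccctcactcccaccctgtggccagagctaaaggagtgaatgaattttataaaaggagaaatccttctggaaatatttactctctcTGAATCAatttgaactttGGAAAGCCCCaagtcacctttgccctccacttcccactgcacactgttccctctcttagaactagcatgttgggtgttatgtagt
Searched on both strands were the kappa-B motif bound by NF-κB, the AP-1 motif TGANTCA, the core GAAANNGAA of the interferon-stimulated response element (ISRE), and the GAS motif TTCNNNGAA. The *Ccl9* window held an AP-1 match at positions -53 to -47 from the start site and a kappa-B match on the opposite strand at -35 to -26. The *Ccl3* window held an ISRE core on the opposite strand at -39 to -31, and the *Ccl17* window a GAS match at -99 to -91. No match to these letters was found in the windows of *Ccl6*, *Ccl12* and *Ccl22*, and no 2 matches overlapped. Of all 32851 promoter windows of this length, 8.46% held the kappa-B motif, 7.81% the AP-1 motif, 8.56% the ISRE core and 8.30% the GAS motif. A match is a run of letters and not a measured binding site.

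Levels were first compared between the ligands per kilobase of transcript, since transcript lengths ran from 514 bases (*Ccl17*) to 3006 bases (*Ccl9*). In control cells after 3 h LPS, *Ccl5* had the highest mean level at 1386 CPM per kb, followed by *Ccl4* at 1199 and *Ccl3* at 998 CPM per kb. *Ccl9* (486), *Ccl2* (475) and *Ccl7* (463 CPM per kb) were next, and neighbours in this order differed by less than their SDs of 12.7, 24.0 and 25.9 CPM per kb. *Ccl6* (170) and *Ccl12* (142 CPM per kb) were lower, *Ccl22* stood at 4.69 and *Ccl17* at 0.22 CPM per kb. After 24 h LPS the order in control cells changed: *Ccl5* reached 4012 CPM per kb, while *Ccl3* (264), *Ccl2* (259), *Ccl4* (150), *Ccl7* (146) and *Ccl9* (101 CPM per kb) were all far lower. *Ccl2* and *Ccl3* differed by less than their SDs of 30.6 and 9.52 CPM per kb there, as did *Ccl4* and *Ccl7*, with SDs of 4.82 and 17.1 CPM per kb. In AclyM-KO cells the order at the top differed. After 3 h *Ccl4* led with 1546 ± 32.4 CPM per kb, before *Ccl3* with 1406 ± 94.4 and *Ccl5* with 1311 ± 49.7 CPM per kb (SD, n = 3), and *Ccl2* (845) and *Ccl7* (730) stood above *Ccl9* (493 CPM per kb). After 24 h *Ccl5* was again first, at 4111 CPM per kb, and *Ccl2*, at 455, came before *Ccl3*, at 316 CPM per kb.

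**Figure D1:**
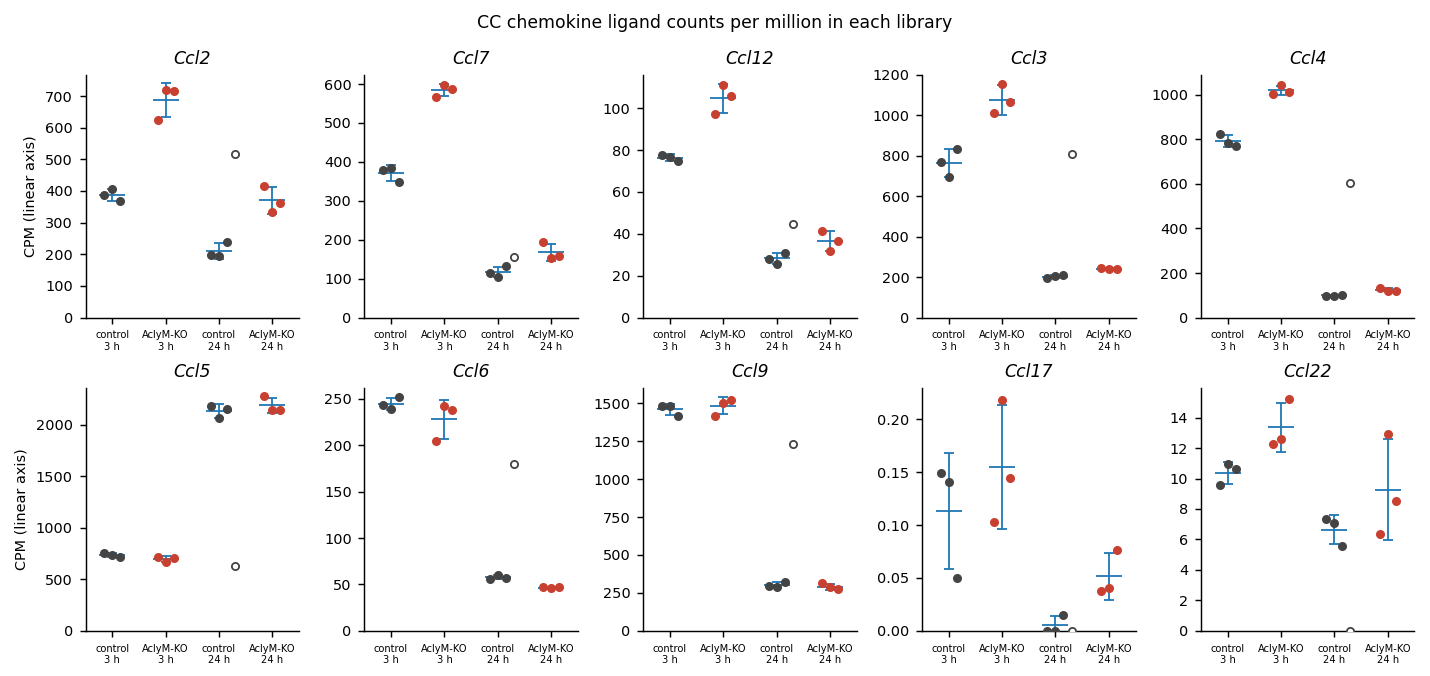
CPM of each CC chemokine ligand (linear axis from 0) in every library, by genotype and hours of LPS. Filled points are the 12 libraries of the fit, the open point is control 24 h replicate 1 with 34467 counts, and blue bars are the mean and SD (n = 3). The AclyM-KO points of *Ccl2*, *Ccl7*, *Ccl12*, *Ccl3* and *Ccl4* lie above the filled control points at both times, and those of *Ccl5* and *Ccl9* overlap them.

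The genotype comparison asks whether ligand levels differ between LPS-treated control and AclyM-KO cells. ACLY makes cytosolic acetyl-CoA from citrate. Without unstimulated cells, a changed response to LPS cannot be told apart from a difference present before it. The genotypes also differ in Cre, so its part cannot be told apart from that of *Acly*. Of the 9 ligands that passed the filter on low counts, *Ccl2* was called higher in AclyM-KO at both times and the other 8 were not called. A gene was called at a Benjamini-Hochberg adjusted p under 0.05 in edgeR's quasi-likelihood test with an absolute log2 fold change over 0.75. Across all genes tested, 1.41% were called higher and 0.603% lower after 3 h, and 0.896% higher and 0.486% lower after 24 h. By adjusted p alone, 5 ligands were higher after 3 h (*Ccl2*, *Ccl3*, *Ccl4*, *Ccl7* and *Ccl12*) and none lower, beside 8.52% of all genes higher and 6.92% lower. After 24 h the same 5 were higher and *Ccl6* was lower, beside 8.31% and 5.59% of all genes. The AclyM-KO libraries did not overlap the controls for 6 of the 9 ligands after 3 h and for 6 after 24 h, beside 30.1% and 33% of all genes tested. The median log2 fold change of the 9 ligands was 0.37 after 3 h and 0.34 after 24 h, against medians of -0.0051 and 0.0053 over all genes tested. In these bulk samples, a different number of responding cells and a different amount of RNA per cell cannot be told apart.

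All 3 CCR2 ligands were higher in AclyM-KO by adjusted p at both times. *Ccl2*, the main monocyte attractant of the family, had 387, 406 and 367 CPM in the control libraries after 3 h and 626, 719 and 717 CPM in the AclyM-KO libraries. After 24 h its levels were 199, 193 and 239 CPM in control replicates 2, 3 and 4 and 416, 333 and 361 CPM in AclyM-KO. All AclyM-KO libraries thus lay above the controls of the same time, and the AclyM-KO cells at 24 h overlapped the control cells at 3 h. The log2 fold change was 0.83 after 3 h (SE 0.097, 1.78-fold, adjusted p = 0.000129 by edgeR) and 0.81 after 24 h (SE 0.097, 1.76-fold, adjusted p = 0.000143). The call at 24 h rested on AclyM-KO replicate 1, the highest of its group: without it the log2 fold change was 0.72, below the fold threshold, with an adjusted p of 2.44e-05.

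*Ccl7*, which neighbours *Ccl2* on the chromosome, had 380, 386 and 347 CPM in control and 568, 597 and 588 CPM in AclyM-KO cells after 3 h. After 24 h it had 114, 105 and 132 CPM in control and 193, 153 and 158 CPM in AclyM-KO cells. The 4 groups did not overlap, in the order AclyM-KO 3 h, control 3 h, AclyM-KO 24 h and control 24 h. The log2 fold change by genotype was 0.66 (SE 0.091, adjusted p = 0.000315 by edgeR) after 3 h and 0.52 (SE 0.093, adjusted p = 0.00203) after 24 h, both under the fold threshold. *Ccl12*, a mouse CCR2 ligand, followed the same order at a lower level, with 77.6, 76.8 and 74.6 CPM in control and 97.0, 111 and 106 CPM in AclyM-KO cells after 3 h. It had 28.0, 25.8 and 30.9 CPM in control and 41.5, 32.0 and 36.4 CPM in AclyM-KO cells after 24 h. None of its groups overlapped, although the highest control (30.9 CPM) and the lowest AclyM-KO library (32.0 CPM) at 24 h were close. Its log2 fold change was 0.46 (SE 0.075, adjusted p = 0.000143 by edgeR) and then 0.37 (SE 0.080, adjusted p = 0.00258).

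The other ligands of chromosome 11 were split. *Ccl3* and *Ccl4*, which encode the macrophage inflammatory proteins 1α and 1β, were higher in AclyM-KO by adjusted p but under the fold threshold. *Ccl3* had 768, 693 and 832 CPM in control and 1011, 1154 and 1065 CPM in AclyM-KO cells after 3 h, and 194, 204 and 208 against 247, 241 and 240 CPM after 24 h. Its log2 fold change fell from 0.49 (SE 0.057, adjusted p = 3.30e-07 by edgeR) at 3 h to 0.26 (SE 0.057, adjusted p = 0.00191) at 24 h. The change of that difference between the times was -0.23 (SE 0.080, adjusted p = 0.0649) and did not pass the threshold. *Ccl4* had 822, 783 and 769 CPM in control and 1002, 1044 and 1015 CPM in AclyM-KO cells after 3 h, and 98.7, 96.3 and 103 against 135, 121 and 121 CPM after 24 h. For both genes, every AclyM-KO library lay above every control of its time. The log2 fold change of *Ccl4* was 0.37 (SE 0.049, adjusted p = 3.58e-06 by edgeR) and 0.34 (SE 0.051, adjusted p = 2.00e-05). With control 24 h replicate 1 in the fit, the log2 fold change of *Ccl3* was 0.49 (adjusted p = 0.0514) at 3 h and 0.22 (adjusted p = 0.412) at 24 h. That of *Ccl4* was 0.37 (adjusted p = 0.163) and 0.30 (adjusted p = 0.283), leaving 3 ligands higher by adjusted p at each time. The levels of both genes in that library lay nearer those of the 3 h libraries, and whether its label holds was not tested.

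*Ccl5* and *Ccl9* had the largest total counts over all libraries and did not pass the test by genotype. *Ccl5*, or RANTES, an attractant of T cells and monocytes, had 758, 738 and 715 CPM in control and 721, 669 and 703 CPM in AclyM-KO cells after 3 h. It had 2186, 2062 and 2156 CPM in control and 2276, 2144 and 2142 CPM in AclyM-KO cells after 24 h, so that the genotypes overlapped at each time. The 95% interval of its log2 fold change ran from -0.17 to 0.013 after 3 h (adjusted p = 0.266 by edgeR) and from -0.058 to 0.13 after 24 h (adjusted p = 0.673). *Ccl9*, macrophage inflammatory protein 1γ of rodents, had 1481, 1483 and 1416 CPM in control and 1419, 1504 and 1524 CPM in AclyM-KO cells after 3 h. After 24 h it had 296, 290 and 324 against 314, 286 and 273 CPM, and these groups overlapped as well. Its intervals were -0.084 to 0.13 and -0.17 to 0.047, with adjusted p-values of 0.832 and 0.502. For both genes these intervals lie inside the fold threshold.

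*Ccl6*, a rodent ligand of CCR1 that lies near *Ccl9*, was the ligand with a lower level in AclyM-KO by adjusted p. After 3 h it had 244, 239 and 252 CPM in control and 204, 243 and 237 CPM in AclyM-KO cells, which overlapped (log2 fold change -0.10, SE 0.055, adjusted p = 0.243 by edgeR). After 24 h it had 56.2, 60.1 and 57.4 CPM in control and 47.1, 46.0 and 47.0 CPM in AclyM-KO cells. Every AclyM-KO library was then below every control, with a log2 fold change of -0.31 (SE 0.059, adjusted p = 0.000428), under the fold threshold. The difference between the times was -0.21 (SE 0.081, adjusted p = 0.104).

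The CCR4 ligands had the lowest levels. *Ccl22* had 9.58, 10.9 and 10.6 CPM in control and 12.3, 12.6 and 15.2 CPM in AclyM-KO cells after 3 h, which did not overlap. After 24 h it had 7.34, 7.08 and 5.54 CPM in control and 6.38, 12.9 and 8.52 CPM in AclyM-KO cells, which did overlap, with a wide spread among the AclyM-KO libraries. Its log2 fold changes of 0.36 (SE 0.21) and 0.51 (SE 0.22) did not pass the test, with adjusted p-values of 0.314 and 0.161. The value at 24 h was 0.20 without AclyM-KO 24 h replicate 2, the highest of its group, and 0.72 without replicate 1, the lowest, where the adjusted p was 0.00474. *Ccl17* had 1 to 3 reads per control library and 2 to 5 per AclyM-KO library after 3 h, and 0, 0 and 1 against 1, 1 and 2 reads after 24 h, so it was filtered out. With no filter, no genotype difference was detectable at this depth (adjusted p = 0.872 after 3 h and 0.455 after 24 h by edgeR).

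**Figure D2:**
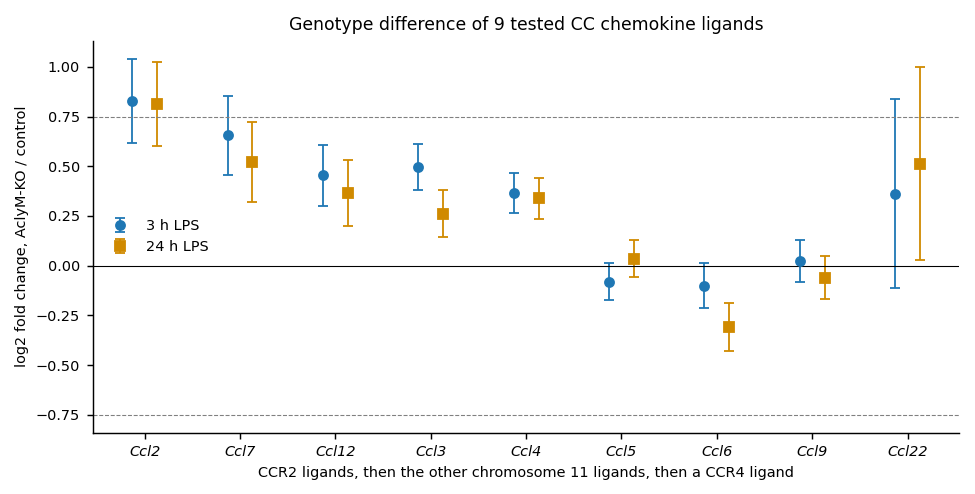
Log2 fold change of AclyM-KO over control (y axis) for 9 CC chemokine ligands at 3 h and 24 h LPS, with 95% confidence intervals from the edgeR fit. Dashed lines mark 0.75 in either direction. *Ccl2* is the ligand above the upper line at both times (0.83 and 0.81), and *Ccl6* at 24 h (-0.31) is the lowest point.

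The time comparison asks how the response between 3 h and 24 h LPS ran in each genotype. In both genotypes 7 of the 9 tested ligands fell (*Ccl2*, *Ccl3*, *Ccl4*, *Ccl6*, *Ccl7*, *Ccl9* and *Ccl12*), *Ccl5* rose and *Ccl22* did not pass the fold threshold. Across all genes tested, 19.5% were called lower and 20.9% higher in control cells, and 20% lower and 21.9% higher in AclyM-KO cells. The median log2 fold change of the 9 ligands was -1.66 in control and -1.80 in AclyM-KO cells, against 0.043 and 0.045 over all genes. The contrasts of the genotypes share no library, and with control 24 h replicate 1 in the fit 8 ligands were again called in each genotype.

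*Ccl4* had the largest fall, from 769 to 822 CPM down to 96.3 to 103 CPM in control cells, and its log2 fold change was -2.99 (SE 0.053, adjusted p = 4.44e-29 by edgeR). In AclyM-KO cells the fall of *Ccl4* was -3.02 (SE 0.053). *Ccl9*, *Ccl6* and *Ccl3* followed, with log2 fold changes of -2.27, -2.08 and -1.92 in control and -2.35, -2.29 and -2.15 in AclyM-KO cells. The CCR2 ligands fell less: *Ccl7* changed by -1.66 and -1.80, *Ccl12* by -1.42 and -1.51, and *Ccl2* by -0.88 and -0.89 on the log2 scale in control and AclyM-KO cells. Among the 7 ligands called lower, *Ccl2* thus kept the largest part of its 3 h level, with 24 h levels of 0.545 and 0.539 times those at 3 h. The 24 h levels of *Ccl22*, which was not called, were 0.623 and 0.691 times those at 3 h in control and AclyM-KO cells. *Ccl22* changed by -0.68 (adjusted p = 0.0157) in control and -0.53 (adjusted p = 0.0386) in AclyM-KO cells. Its side of the fold threshold depended on single libraries: it was called lower in control without control 24 h replicate 2 (-0.76) and in AclyM-KO without AclyM-KO 24 h replicate 2 (-0.84), and in AclyM-KO its change was -0.32 without AclyM-KO 24 h replicate 1. The single ligand that rose, *Ccl5*, went from 715 to 758 CPM up to 2062 to 2186 CPM in control cells, with a log2 fold change of 1.53 (SE 0.047, adjusted p = 3.76e-23), and in AclyM-KO cells rose by 1.65 (SE 0.047) on the same scale.

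**Figure D3:**
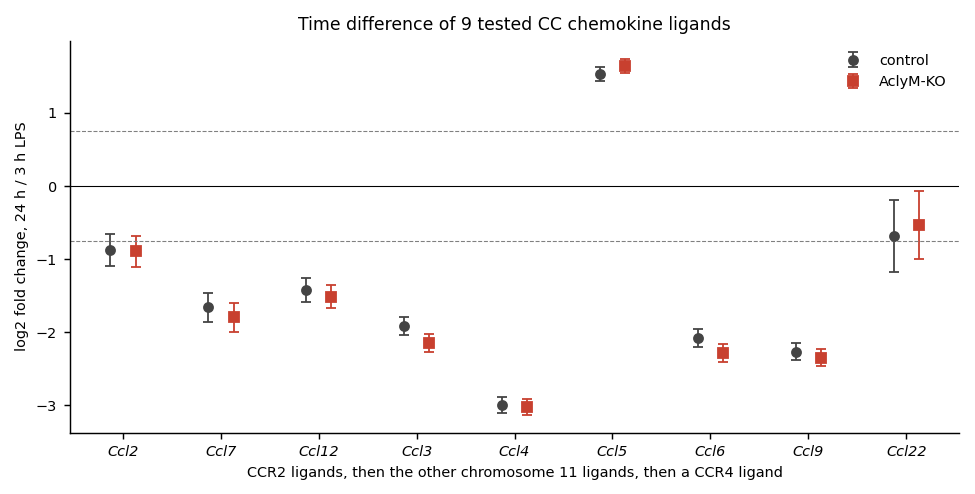
Log2 fold change from 3 h to 24 h LPS (y axis) for 9 CC chemokine ligands in control and AclyM-KO cells, with 95% confidence intervals from the edgeR fit and dashed lines at 0.75 in either direction. *Ccl5* is above the upper line (1.53 and 1.65), *Ccl4* is lowest (-2.99 and -3.02), and the intervals of both genotypes overlap for every ligand.

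Several other measures moved between the times. The summed neutrophil markers were 11.9 to 15.3 CPM at 3 h and 3.44 to 4.70 CPM at 24 h. Across all genes tested, 19.5% were called lower with time in control and 20% in AclyM-KO cells. All 4 neutrophil markers that were tested of 9 fell in both genotypes (*S100a8*, *S100a9*, *Ngp* and *Ltf*), with group means of 0.33 to 5.37 CPM. Of the others, *Ly6g* and *Retnlg* were at 0 in all 12 libraries, and *Mpo*, *Elane* and *Camp* had at most 8 reads in any library. The summed macrophage markers were 6915 to 10081 CPM at 3 h and 4523 to 6333 CPM at 24 h, and at each time lower in AclyM-KO. That gap between the genotypes lay in *Lyz2*, whose promoter drives Cre and which was called lower, with means of 5240 CPM in control and 2667 CPM in AclyM-KO cells at 3 h and 2437 and 921 CPM at 24 h. The other 7 markers summed to 4716 to 4860 CPM in control and 4643 to 4908 CPM in AclyM-KO libraries at 3 h, and to 3635 to 3812 and 3579 to 3767 CPM at 24 h, so the genotypes overlapped. Within that sum single markers differed by adjusted p, under the fold threshold and in both directions. After 3 h *Adgre1* was higher in AclyM-KO (0.24 on the log2 scale), and *Fcgr1* (-0.26), *Cd14* (-0.15) and *Mertk* (-0.31) were lower. After 24 h *Mertk* was lower (-0.33). With time, *Csf1r*, *Itgam*, *Cd14* and *Lyz2* were called lower in both genotypes, while *Adgre1* was called higher in control (0.77 on the log2 scale) and *Fcgr1* in AclyM-KO cells (1.00). The one tested dendritic cell marker, *Xcr1*, fell, with log2 fold changes of -2.79 in control and -2.41 in AclyM-KO cells, and the one tested fibroblast marker, *Dcn*, rose by 3.73 and 2.81. Both rest on few reads. In control and AclyM-KO cells, the means of *Xcr1* were 1.07 and 1.45 CPM at 3 h and 0.16 and 0.27 CPM at 24 h. Those of *Dcn* were 0.066 and 0.095 CPM at 3 h and 0.91 and 0.70 CPM at 24 h. The part of these markers in the ligand results was not tested.

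No ligand passed the test of whether the genotype difference itself changed between the times, in which adjusted p alone was required. Across all genes, 4.88% had a called interaction above 0 and 4.71% below 0. At an unadjusted p under 0.05 in edgeR's test there were 2 of 9 ligands, *Ccl3* and *Ccl6*, beside 23.6% of all genes tested, and DESeq2 called 0 ligands. The interaction of *Ccl2* was -0.017, with a 95% interval of -0.32 to 0.28 on the log2 scale. For *Ccl4* the interval was -0.17 to 0.12, and for *Ccl5* it was -0.017 to 0.25. Without AclyM-KO 3 h replicate 1, the library with the lowest *Ccl3* and *Ccl6* of its group, both passed, with adjusted p-values of 0.00794 for *Ccl3* and 0.00390 for *Ccl6*. *Ccl3* also passed without control 3 h replicate 3, at an adjusted p of 0.0160.

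The make-up of the ligands' counts differed between the times. Together the 10 ligands took 0.431% to 0.447% of all counts in control and 0.509% to 0.562% in AclyM-KO libraries after 3 h. After 24 h they took 0.335% to 0.358% in control replicates 2 to 4 and 0.367% to 0.397% in AclyM-KO libraries, so the genotypes did not overlap at either time. *Ccl5* gave 15.2% ± 0.24 of the ligands' summed CPM in control and 11.9% ± 0.85 in AclyM-KO cells after 3 h (SD, n = 3). After 24 h *Ccl5* gave 67.6% ± 1.3 and 62.9% ± 0.91. *Ccl9* gave the largest share after 3 h, at 30.1% in control and 25.2% in AclyM-KO cells, and then 9.60% and 8.36%. The share of *Ccl2* was 7.98% in control and 11.6% in AclyM-KO cells after 3 h, and 6.64% and 10.6% after 24 h. These shares are of counts, in which a long transcript such as *Ccl9* weighs more than a short one.

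**Figure D4:**
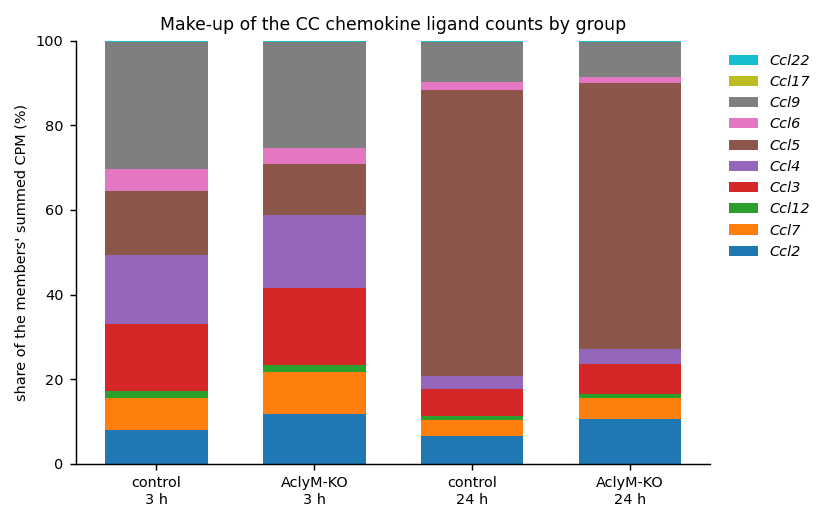
Mean share of each ligand in the summed CPM of the 10 CC chemokine ligands (y axis, percent) for the 4 groups, with n = 3 libraries each. *Ccl5* goes from 15.2% and 11.9% at 3 h to 67.6% and 62.9% at 24 h, and *Ccl17* and *Ccl22* are too small to see.

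Within groups, the CCR2 ligands varied together. Over the 12 libraries, deviations of log2 CPM from the group mean correlated at 0.93 between *Ccl2* and *Ccl12*, 0.92 between *Ccl2* and *Ccl7*, and 0.90 between *Ccl7* and *Ccl12*. *Ccl9* was as close to *Ccl7* (0.90) and *Ccl2* (0.88), and *Ccl4* to *Ccl7* (0.89), although *Ccl9* did not pass the genotype test. *Ccl3* was most like *Ccl6* (0.68) and little like its neighbour *Ccl4* (0.24). *Ccl22* deviated the other way, at -0.78 with *Ccl12* and -0.74 with *Ccl4*, and *Ccl5* was at -0.61 with *Ccl6*. AclyM-KO 24 h replicate 1 was among the libraries farthest from their group. It was above its group's mean by 0.18 for *Ccl2*, 0.21 for *Ccl7* and 0.18 for *Ccl12*, and below it by a deviation of -0.43 for *Ccl22*, on the log2 scale. For the same genes in the same order, control 24 h replicate 4, the deepest library, deviated by 0.19, 0.18, 0.13 and -0.22. AclyM-KO 24 h replicate 2 deviated the other way, by -0.15, -0.13, -0.18 and 0.49. These values are a description over 12 libraries. The values of 1 library share its depth and preparation, and 4 group means were taken out.

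**Figure D5:**
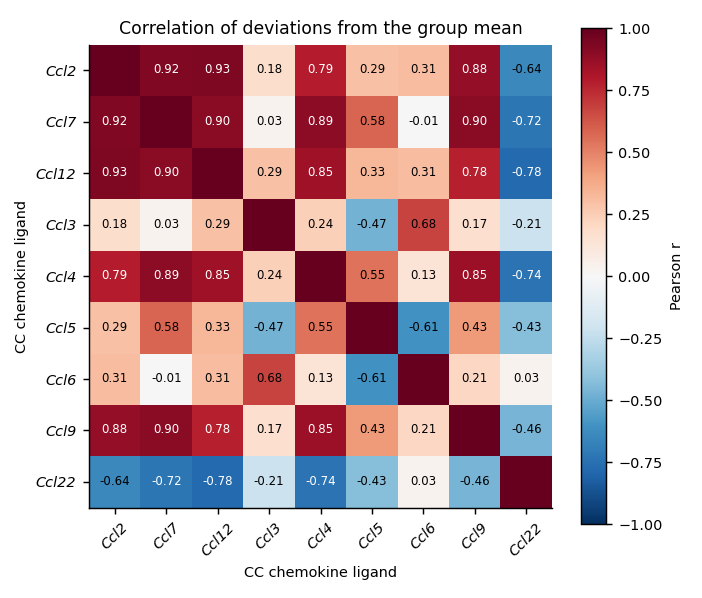
Pearson correlation between 9 CC chemokine ligands (both axes) of log2 CPM deviations from the group mean over 12 libraries, in colour and as printed values. *Ccl2*, *Ccl7*, *Ccl12*, *Ccl4* and *Ccl9* form a block of values from 0.78 to 0.93, and the row of *Ccl22* is mostly below 0.

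The pentamer ATTTA, known as the core of AU-rich elements through which short-lived mRNAs are bound, was counted in the 3′ ends after the stop codon of the GENCODE transcripts; this count was chosen after the values above were seen. *Ccl3* (409 bases) and *Ccl12* (167 bases) each held 5 copies, and *Ccl4* and *Ccl7* each held 2 in 302 and 435 bases. *Ccl2* held 1 in 275 bases, and *Ccl5* (199 bases) and *Ccl17* (183 bases) held 0. Among 2352 tested genes with 167 to 500 bases after the stop codon, 37.5% held at least 1 copy, 12.5% at least 2 and 0.468% at least 5. The longer 3′ ends of *Ccl6* (943 bases), *Ccl9* (2465) and *Ccl22* (1813) held 4, 5 and 2 copies. These counts are a description of the letters and not of how long any mRNA lasts.

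The other ligands of the family were scarce. Of 11 examined, *Ccl8*, *Ccl24* and *Ccl25* passed the filter, and none was called by genotype or in the interaction. *Ccl8*, a monocyte attractant, was the highest per length, at 64.9 CPM per kb in control cells after 3 h and 79.3 CPM per kb after 24 h, between *Ccl12* and *Ccl22* at 3 h and above *Ccl12* (52.6 CPM per kb) at 24 h. Its genotype difference was 0.12 (adjusted p = 0.323 by edgeR) and then -0.021 (adjusted p = 0.886) on the log2 scale. With time *Ccl24*, an eosinophil attractant, changed by -3.23 in control and -4.30 in AclyM-KO cells, and *Ccl25* by 1.13 and 1.34, on the log2 scale.

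The receptors were read in the same cells. Of 13 CC chemokine and atypical receptor genes examined, 7 passed the filter and 0 were called by genotype at either time. By adjusted p alone, 1 was higher and 1 lower after 3 h, beside 8.52% and 6.92% of all genes tested. After 24 h 1 was higher and 0 lower, beside 8.31% and 5.59% of all genes. *Ccrl2*, an atypical receptor that binds chemerin, was the highest per length, at 145 CPM per kb in control cells after 3 h, and was higher in AclyM-KO by 0.22 (adjusted p = 0.00358) and 0.37 (adjusted p = 6.38e-06). *Ccr1*, a receptor of *Ccl3*, *Ccl5*, *Ccl6* and *Ccl9* products, had 115, 122 and 131 CPM in control and 75.6, 79.7 and 79.4 CPM in AclyM-KO cells after 3 h. After 24 h it had 8.98, 11 and 9.53 CPM in control and 9.01, 9.45 and 11 CPM in AclyM-KO cells, so the genotypes were apart at 3 h and overlapped at 24 h. The log2 difference was -0.65 (adjusted p = 1.69e-08 by edgeR) and then 0.0052, and the interaction of 0.66 was called (adjusted p = 0.000141). *Ccr3* had a called interaction of -0.96 (adjusted p = 0.0404), with a fall from 28.4 to 32.8 CPM at 3 h down to 0.725 to 0.962 CPM at 24 h in control cells. In AclyM-KO cells it fell from 29.0 to 37.1 CPM down to 0.32 to 0.75 CPM. The genotypes overlapped at both times, and the genotype difference passed at neither (adjusted p = 0.284 and 0.0594 by edgeR). *Ccr2*, the receptor of the *Ccl2*, *Ccl7* and *Ccl12* products, had a mean of 1.43 CPM in control cells after 3 h and did not pass by genotype (adjusted p = 0.430 and 0.566). With time 4 of the 7 fell in both genotypes (*Ccr1*, *Ccr2*, *Ccr3* and *Ccr9*), and *Ccr7* and *Ackr4* rose. Across all genes tested, 19.5% were called lower and 20.9% higher with time in control cells, and 20% and 21.9% in AclyM-KO cells. Interactions were called above 0 for 4.88% of all genes and below 0 for 4.71%.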

How the data were processed

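RNA of LPS-stimulated BMDMs was sequenced in 13 libraries. From strand-specific libraries, the authors aligned reads to mm10 with STAR 2.5.2b and counted tags on each RefSeq transcript with HOMER, and the submitters' processing notes also name CASAVA 1.8.2. The deposited values are these raw counts, not normalized, for 35745 transcripts; 35628 were matched to a symbol through RefSeq and GENCODE tables, and 0 columns were left unused. A symbol with several transcripts was read from that of the highest total.

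Samples were grouped by genotype and time from their labels. Counts were normalized by TMM, filtered with filterByExpr (19621 transcripts of 11942 genes left) and fitted with edgeR 4.0.16 (R 4.3.3, limma 3.58.1) as robust quasi-likelihood models over 12 libraries and 4 groups. Adjusted p-values follow Benjamini and Hochberg, over every tested transcript. A call needed an adjusted p under 0.05 and an absolute log2 fold change over 0.75, the thresholds of the study's methods, and an interaction the adjusted p only. The fit was also run on simulated counts with planted changes. Every transcript had the same spread there, so that run does not measure error rates in these data. For correlations, a pseudocount of 1 was added to CPM. Alternatives were DESeq2 1.42.0, RLE normalization, no filter, 1 row per gene, the groups of a contrast alone, a replicate block, all 13 libraries, and each library left out in turn.

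All 10 ligands are named in every contrast; other family members and receptors are given by counts and named when called by genotype or interaction, or when among the 3 highest per length. *Ccr2*, *Ccr7*, *Ccr9*, *Ackr4* and the cell type markers were named outside this rule, after their values were seen. Part of the receptor list is not reported here. The ligands, gene lists and rules were chosen with earlier results of these data known. Replicates of a group differed by more than sampling noise (chi-square over its degrees of freedom 2.60 to 11.2). Depth limits *Ccl17* and, in control 24 h replicate 1, every gene.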

Additional observations from a re-analysis of the deposited data

Results flagged for a closer look

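Among the 4 control libraries after 24 h LPS, replicate 1, with 34467 counts, stood far from the other 3 by Dixon's criterion, which flags about 1 in 20 groups by chance. It had 515 CPM of *Ccl2* (the others 193 to 239), 807 of *Ccl3* (194 to 208), 605 of *Ccl4* (96.3 to 103), 179 of *Ccl6* (56.2 to 60.1) and 1232 CPM of *Ccl9* (290 to 324). *Ccl5* was low in it, at 627 CPM against 2062 to 2186. Of the other family genes it had 22.4 CPM of *Ccl8* (39.9 to 41.3), 0 of *Ccl25* (2.69 to 3.21) and 89.6 CPM of *Ccr1* (8.98 to 11). Each of these values is on the side of the 3 h libraries, but all rest on few reads, as 1 read stood for 22.4 CPM. *Ccl2*, *Ccl3*, *Ccl4*, *Ccl5* and *Ccl9* had 23 to 55 reads, *Ccl6* had 8, and *Ccl8* and *Ccl25* had 1 and 0. The same criterion marked single reads of *Ccl17* in replicate 4 (0.0153 CPM), and of *Ccl11* and *Ccr4* in replicate 2 (0.0410 CPM each), where the other libraries were at 0.

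This rule looked at *Acly*, the CC ligands and the receptors. Among them, the genotype difference changed between 3 h and 24 h LPS, by the interaction test in edgeR, for *Acly* (-0.54 on the log2 scale, adjusted p = 9.29e-05), *Ccr1* (0.66, adjusted p = 0.000141) and *Ccr3* (-0.96, adjusted p = 0.0404). Of the 8 macrophage markers, the same test called *Lyz2* (-0.43, adjusted p = 0.0130), *Adgre1* (-0.27, adjusted p = 0.00904) and *Fcgr1* (0.29, adjusted p = 0.0238). Across all genes tested, 4.88% were called above 0 and 4.71% below 0. The 24 h levels of *Ccr3* were low and overlapped, at 0.725 to 0.962 CPM in control and 0.32 to 0.75 CPM in AclyM-KO cells.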

How the results depend on the processing

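*Ccl2* was called higher in AclyM-KO after 3 h under all 19 alternatives, with a log2 fold change of 0.80 to 0.90. After 24 h the count of called ligands was 0 to 1 when single libraries were left out, 0 being without AclyM-KO 24 h replicate 1 (*Ccl2* at 0.72). With all 13 libraries, 3 ligands were higher by adjusted p alone at each time in place of 5. With no filter 1 interaction was called, and 0 to 2 when single libraries were left out. The interaction of *Ccl2* changed sign without single libraries (-0.11 to 0.086, including 0.054, 0.00026, 0.014 and 0.0058), as did those of *Ccl4* (-0.081 to 3.43e-06) and *Ccl22* (-0.16 to 0.36, including -0.0069); none of these was called, and the cause was not tested. With groups of the contrast alone, *Ccl7* at 24 h had an adjusted p of 0.0631. *Ccl17*, tested with no filter, changed by -3.12 with time in control cells (adjusted p = 0.0296 by edgeR) and was called lower. DESeq2 called it in the same contrast as well. Its control libraries held at most 3 reads each.

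The labels do not say whether replicate numbers pair the libraries. Deviations of same-numbered libraries correlated at -0.018 to 0.099 across genes. Each AclyM-KO library correlated best with its own number at the other time, at 0.045 to 0.071 against at most -0.0060 for other numbers. So did control 24 h replicate 3 (0.068 against -0.021), but not replicate 2 (0.0067 against 0.035). The main fit used no pairing, so its time and interaction tests would not reflect one. The replicate block ties equal numbers across genotypes as well as times. With the replicate block, the interaction of *Ccl2* was 0.077 in place of -0.017, and its genotype difference 0.83 after 3 h and 0.91 after 24 h; the block changed no call of a ligand. Of the 846 single-gene values under alternatives, 830 kept direction and call.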
